A study of Mus musculus with 10 samples.

Results

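Interferon-stimulated and antigen presentation genes were followed in whole-brain RNA of neonatal mice after hypoxic-ischemic injury, a shortage of blood flow and oxygen. The set holds 39 genes listed by name, a list drawn up with earlier results of these data known, and all 39 were found among the 55471 gene identifiers of the table. Of these, 35 passed the count filter (10 or more counts in at least 5 of the 10 libraries), as did 17101 genes in all. Zbp1, Oas3, Oasl1 and Mx1 did not pass and were not tested. The mice were wild-type pups of the outbred Swiss Webster stock, given as neonatal day 5. In the untreated group 5 pups had the injury and no treatment (libraries 1 to 5). In the treated group 5 pups had the same injury and allopregnanolone (libraries 6 to 10), a neurosteroid of the progesterone pathway that enhances GABA-A receptor currents. Uninjured pups were not analysed here, so every value below is a level within injured brains. Each library was made from 1 pup. Dose, litter and time since injury were not used here.

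Type I interferons are secreted proteins that cells release when sensors in the cytoplasm or endosome meet viral or misplaced nucleic acid. They bind a receptor made of Ifnar1 and Ifnar2. Kinases on that receptor then act on transcription factors such as Stat2, which joins Irf9 in a complex that binds the interferon-stimulated response element in the promoters of many genes. The products of these genes block viral RNA, tag proteins with Isg15, raise the level of the sensors themselves and increase the display of peptides on class I molecules of the major histocompatibility complex. In the brain, microglia, endothelial cells, astrocytes and neurons can all carry this programme, and its genes are known to be induced as a group.

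Promoter windows of 6 members are shown. Isg15, Ifit1 and Rsad2 stand for the classical inducible genes, and Cmpk2 is the neighbour of Rsad2 that was far more abundant. B2m and H2-K1 encode the 2 chains of the class I molecule. Each window runs from 250 bases before to 50 bases after a RefSeq transcription start on GRCm38.p6, is written 5′ to 3′ on the strand of the gene, and has in capitals the bases of the response element motif (GAAA, any 2 bases, GAAA) or its reverse complement.
Isg15, chr4:156200769-156201068, minus strand: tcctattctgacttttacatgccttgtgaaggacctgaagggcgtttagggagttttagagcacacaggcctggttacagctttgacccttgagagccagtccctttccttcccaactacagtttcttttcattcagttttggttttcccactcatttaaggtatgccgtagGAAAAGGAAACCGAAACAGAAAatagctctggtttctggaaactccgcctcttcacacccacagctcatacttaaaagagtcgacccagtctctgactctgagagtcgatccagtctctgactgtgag
Ifit1, chr19:34640639-34640938, plus strand: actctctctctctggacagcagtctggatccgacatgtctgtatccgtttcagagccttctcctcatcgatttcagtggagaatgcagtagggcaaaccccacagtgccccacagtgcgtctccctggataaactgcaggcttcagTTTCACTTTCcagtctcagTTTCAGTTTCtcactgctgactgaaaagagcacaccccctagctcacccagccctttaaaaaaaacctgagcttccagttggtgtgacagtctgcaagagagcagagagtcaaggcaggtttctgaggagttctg
Rsad2, chr12:26456403-26456702, minus strand: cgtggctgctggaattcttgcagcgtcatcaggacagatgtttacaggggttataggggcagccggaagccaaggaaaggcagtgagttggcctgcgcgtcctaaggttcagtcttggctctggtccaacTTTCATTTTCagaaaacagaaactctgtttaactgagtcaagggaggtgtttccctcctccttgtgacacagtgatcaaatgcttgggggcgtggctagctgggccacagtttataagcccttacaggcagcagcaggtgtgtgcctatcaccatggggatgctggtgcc
Cmpk2, chr12:26468965-26469264, plus strand: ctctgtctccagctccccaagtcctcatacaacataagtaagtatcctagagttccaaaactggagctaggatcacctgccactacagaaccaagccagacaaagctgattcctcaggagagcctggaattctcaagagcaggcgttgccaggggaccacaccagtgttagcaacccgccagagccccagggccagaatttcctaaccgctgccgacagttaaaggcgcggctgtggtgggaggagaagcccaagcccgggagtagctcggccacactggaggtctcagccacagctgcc
B2m, chr2:122147437-122147736, plus strand: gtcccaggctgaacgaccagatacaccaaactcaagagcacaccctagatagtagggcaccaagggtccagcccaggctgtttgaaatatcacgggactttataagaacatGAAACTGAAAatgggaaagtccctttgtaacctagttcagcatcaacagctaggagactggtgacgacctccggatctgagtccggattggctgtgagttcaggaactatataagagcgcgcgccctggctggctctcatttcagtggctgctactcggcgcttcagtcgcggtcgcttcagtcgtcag
H2-K1 (the first of its 2 windows), chr17:34000284-34000583, minus strand: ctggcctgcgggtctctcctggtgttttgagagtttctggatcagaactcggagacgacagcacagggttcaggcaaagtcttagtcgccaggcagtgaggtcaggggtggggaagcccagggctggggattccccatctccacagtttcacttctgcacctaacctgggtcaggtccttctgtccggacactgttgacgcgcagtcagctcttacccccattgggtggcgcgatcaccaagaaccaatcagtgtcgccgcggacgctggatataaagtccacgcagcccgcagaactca

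Isg15 held 3 overlapping matches, whose first bases lay 78, 72 and 66 bases before the start. Ifit1 held 2, at 104 and 85 bases before it, Rsad2 held 1 at 120 bases and B2m 1 at 139 bases. No match lay in the windows of Cmpk2 and H2-K1. Over both strands, 13 of the 30 members with an entry in the RefSeq promoter table had a match in at least 1 window (43.3%), against 3.99% of the 27025 genes in that table. These 13 were Stat2, Ifih1, Ddx58, Ifit1, Ifit3, Ifit3b, Oas1a, Oas3, Isg15, Rsad2, Bst2, Ifitm3 and B2m. The gamma-activated site TTCNNNGAA, which reads the same on both strands and can overlap the other motif, was found for 8 of the 30 members (26.7%) and 9.55% of all genes. A match describes the letters of a window and shows no binding.

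Total counts per library ran from 18656836 to 34270723. Neuron markers summed to between 7054 and 7777 CPM (the counts of a gene scaled to the size of its library, with TMM factors) in every library, so the labelled tissue had its defining transcripts. The names of untreated libraries 1 to 3 begin with another number than those of the other 7 libraries, and the labels do not say what that number marks. Within the 7 libraries that share a name prefix, 2 untreated and 5 treated, 105 of 16469 genes were called at an adjusted p of 0.05, against 1926 of 17101 over all libraries. Untreated library 4 stood apart for the genes described here. It was the highest of its group for 28 of the 35 members tested, whereas it was the highest for 21.6% of all genes tested. Results are therefore given with and without it where it matters.

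Of the members tested, 4 were lower with allopregnanolone: 2 of the 4 antigen presentation genes, 1 of the 2 receptor chains and 1 of the 29 inducible genes. H2-K1 fell 1.95-fold, Tap1 1.70-fold, the interferon-induced Ifit2 1.36-fold and the receptor chain Ifnar1 1.15-fold. No member rose. The 4 genes are 11.4% of the 35 members tested, and 11.3% of all genes tested were called in either direction, so the share is that of the background. Of all genes, 4.65% were called lower and 6.61% higher. The median log2 fold change of the 35 members was -0.11, against -0.0046 over all genes, with 21 members below 0 and 14 above. Without untreated library 4 the median was 0.04, with 17 members below 0 and 18 above. That library was singled out for its high values of these genes, so leaving it out raises most of their fold changes by construction. Treated library 9, the highest of its group for 22 of the 35 members, was kept. Calls are from edgeR's quasi-likelihood test, with p values adjusted over all 17101 genes. Without adjustment 7 members had a p under 0.05, of which only Stat2 was higher, and 27.5% of all genes had one. DESeq2 called 1 member higher and 4 lower (15.4% of all genes either way), and limma-trend 4 lower (11.2%). The groups did not overlap for 2 of the 35 members, Ifnar1 and Ifit2, both lower, against 4.2% of all genes with every treated library below every untreated one and 9.64% without overlap in either direction. Without untreated library 4 edgeR called 2 members, H2-K1 lower and Oas1a higher, and 6.39% of all genes. After thinning of every library to the depth of the shallowest it called 2 members and 11.5% of all genes. With the name prefix as a covariate, and within the 7 libraries that share a prefix, edgeR called 0 of 35 and 0 of 34 members, while the background fell to 1.05% and 0.638%.

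**Figure D1:**
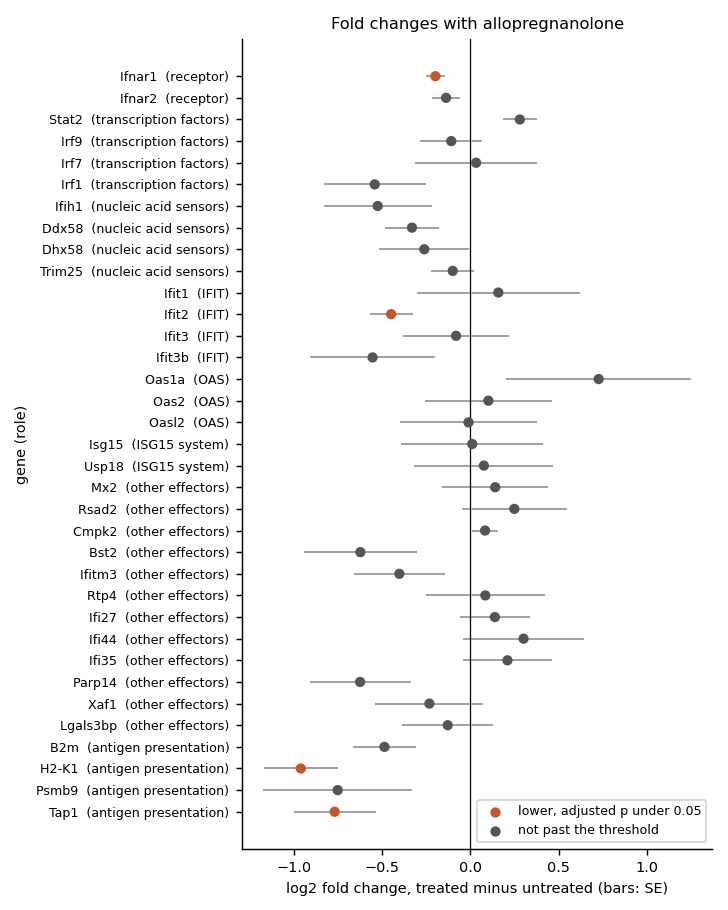
Log2 fold change of the 35 members tested (x axis, treated minus untreated, bars are standard errors), ordered by role; orange points passed an adjusted p of 0.05. The 4 orange points, Ifnar1, Ifit2, H2-K1 and Tap1, lie below 0, and the points of the antiviral families lie on both sides of it.

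The receptor chain Ifnar1 fell and Ifnar2 did not pass the test. Ifnar1 (ENSMUSG00000022967, chromosome 16, 91485238 to 91507441 on GRCm38), the chain that carries the kinase Tyk2, stood at 53.5, 54.3, 56.2, 58.4 and 50.2 CPM in untreated libraries 1 to 5. In treated libraries 6 to 10 it stood at 45.0, 44.4, 49.5, 49.6 and 49.1 CPM. Every treated library lay below every untreated one, though the gap between untreated library 5 and treated library 9 was narrow. The means were 54.5 ± 3.08 and 47.5 ± 2.56 CPM (SD, n = 5 each), a log2 fold change of -0.20 (SE 0.06, adjusted p = 0.0348, edgeR). Ifnar2, the chain that first holds Stat2, ranged from 15.2 to 18.0 CPM untreated and from 13.6 to 17.1 CPM treated, with overlapping groups (log2 fold change -0.14, SE 0.08, adjusted p = 0.294, edgeR). The call on Ifnar1 was lost in 10 of 25 alternative analyses, with adjusted p from 0.0149 to 0.288 over all 25.

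The interferons themselves were almost unseen. Of 21 interferon genes, 18 had no count in any library, and none passed the filter. The largest value of any of them in any library was 2 counts, for Ifng, the type II interferon. A count of 0 allows up to 3 counts, which is 0.161 CPM in the shallowest and 0.0875 CPM in the deepest library. RNA of the 18 genes without a count was thus not detectable at this depth in either group. Besides Ifng, only Ifna13 and Ifnk were seen, with at most 1 count each in any library.

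Transcription factors of the pathway did not pass the test. Stat2 (ENSMUSG00000040033, chromosome 10, 128270559 to 128292849) stood at 18.7, 23.4, 18.0, 19.1 and 20.6 CPM in untreated libraries 1 to 5 and at 25.3, 20.9, 25.2, 28.1 and 21.5 CPM in treated libraries 6 to 10. Untreated library 2 was above treated libraries 7 and 10, and the other untreated libraries were below all treated ones. With a log2 fold change of 0.28 (SE 0.10) it missed the threshold (adjusted p = 0.0726, edgeR), and it passed in 2 of 25 alternative analyses, DESeq2 and the fit without untreated library 2. Irf9, the DNA-binding partner of Stat2, stood at 12.5, 10.7, 11.9, 18.9 and 9.08 CPM untreated and at 11.2, 11.8, 8.84, 14.4 and 12.3 CPM treated. Irf7, which amplifies the interferon response and is itself induced by it, stood at 3.48, 2.46, 1.51, 5.50 and 2.23 CPM untreated and at 3.28, 3.10, 1.14, 4.06 and 3.83 CPM treated. For both genes untreated library 4 was the highest and treated library 9 the highest of its group, and the groups overlapped throughout. Log2 fold changes were -0.11 (SE 0.18) for Irf9 and 0.03 (SE 0.35) for Irf7, and 0.08 and 0.35 without untreated library 4, with no call in either case. Irf1, a factor more tied to the type II response, stood at 4.10, 2.33, 2.22, 4.58 and 1.34 CPM untreated and at 1.97, 2.53, 2.09, 1.62 and 1.82 CPM treated (log2 fold change -0.54, SE 0.29, adjusted p = 0.248, edgeR). Its untreated values spread on both sides of the treated ones, with untreated library 5 the lowest of all 10.

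Sensors of foreign or misplaced nucleic acid had fold changes below 0, and none of the 4 tested passed. Ddx58, also called RIG-I, detects RNA ends and ranged from 4.99 to 8.18 CPM untreated and from 4.62 to 6.92 CPM treated (log2 fold change -0.33, SE 0.15, adjusted p = 0.186, edgeR). Ifih1, also called MDA5, detects long double-stranded RNA and ranged from 1.81 to 5.41 CPM untreated and from 1.22 to 3.18 CPM treated (log2 fold change -0.52, SE 0.31). The groups overlapped for both genes, and their highest values were those of untreated library 4. Dhx58, the regulator LGP2 of these helicases, had means of 1.04 ± 0.115 CPM without and 0.865 ± 0.258 CPM with treatment (SD, n = 5 each). Trim25, a ubiquitin ligase that acts on RIG-I, averaged 9.17 ± 1.45 and 8.54 ± 0.858 CPM. Zbp1, a sensor of Z-form nucleic acid that can trigger necroptosis, was below the filter at 0.129 to 0.739 CPM untreated and 0 to 0.369 CPM treated, the highest value again being that of untreated library 4.

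Among the IFIT genes, whose products bind viral RNA lacking host marks, Ifit2 fell. Ifit2 (ENSMUSG00000045932, chromosome 19, 34550694 to 34576419) stood at 5.97, 5.99, 6.77, 7.67 and 5.74 CPM in untreated libraries 1 to 5 and at 4.15, 5.18, 4.52, 5.35 and 4.41 CPM in treated libraries 6 to 10. No treated library reached the lowest untreated one. The fall measured -0.45 on the log2 scale (SE 0.12, adjusted p = 0.0313, edgeR), and this call was lost in 8 of 25 alternative analyses, among them the one without untreated library 4 (log2 fold change -0.38, adjusted p = 0.0791, edgeR). Ifit1 ranged from 0.757 to 3.00 CPM untreated and from 0.397 to 2.77 CPM treated, a wide spread within each group and a log2 fold change of 0.16 (SE 0.46). Ifit3 and Ifit3b are neighbouring near-copies. In 50-base windows of their transcripts, 51.2% of those of Ifit3 and 45.0% of those of Ifit3b also occur in another gene, so the split of reads between them is uncertain. Ifit3 averaged 1.13 ± 0.372 CPM untreated and 1.05 ± 0.342 CPM treated, and Ifit3b 1.14 ± 0.600 and 0.757 ± 0.226 CPM (SD, n = 5 each).

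OAS genes encode enzymes that make short oligoadenylates, which switch on RNA decay, or inactive relatives of these enzymes. None of the 3 tested passed. Oasl2 (ENSMUSG00000029561, chromosome 5, 114896936 to 114912234), the most abundant of the family, stood at 7.22, 3.06, 2.97, 13.3 and 4.23 CPM untreated and at 6.20, 5.29, 2.93, 8.86 and 7.09 CPM treated. Untreated library 4 was the highest and untreated library 3 and treated library 8 the lowest, so that each group spanned most of the range. The means were 6.16 ± 4.35 and 6.08 ± 2.20 CPM (SD, n = 5 each), with a log2 fold change of -0.01 (SE 0.39). The log2 fold change of Oasl2 was 0.47 without untreated library 4 (adjusted p = 0.405, edgeR). Oas1a stood at 0.312, 0.345, 0.238, 1.57 and 0.178 CPM untreated and at 1.31, 0.676, 0.546, 1.02 and 0.671 CPM treated. Without untreated library 4 its treated values were all above the untreated ones and it passed as higher (log2 fold change 1.66, adjusted p = 0.0223, edgeR), whereas with that library it did not (0.73, SE 0.52, adjusted p = 0.403). Leaving out a library picked for its high values raises this fold change by construction. Oas1a passed in only 1 of 24 alternative analyses, and its log2 fold change was -0.01 in both fits that deal with the name prefix. Its untreated counts ran from 4 to 34. Of its 50-base windows 57.6% are shared with Oas1g, which leaves its reads uncertain. Oas2 had means of 1.06 ± 0.515 and 1.13 ± 0.423 CPM without and with treatment (SD, n = 5 each). Oas3 and Oasl1 were below the filter, at no more than 0.430 and 1.16 CPM in any library.

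The ubiquitin-like modifier Isg15 and Usp18, the protease that removes it and that also damps signalling at Ifnar2, were both highest in untreated library 4. Isg15 (ENSMUSG00000035692, chromosome 4, 156199424 to 156200818) stood at 0.664, 0.560, 0.436, 2.17 and 0.757 CPM untreated and at 1.10, 1.01, 0.646, 1.11 and 0.671 CPM treated. Usp18 stood at 1.05, 0.474, 0.515, 1.89 and 0.668 CPM untreated and at 0.984, 0.788, 0.497, 1.38 and 1.15 CPM treated. The groups overlapped in both. Log2 fold changes were 0.01 (SE 0.40) for Isg15 and 0.08 (SE 0.39) for Usp18, with adjusted p = 0.990 and 0.928 in edgeR. Leaving out untreated library 4 gave 0.59 and 0.50, again short of the threshold (adjusted p = 0.252 and 0.432, edgeR).

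The 12 other effector genes tested included none past the threshold, 7 with fold changes above 0 and 5 below. Parp14, an ADP-ribosyltransferase, had means of 3.85 ± 1.29 and 2.48 ± 0.981 CPM without and with treatment (SD, n = 5 each), and Bst2, or tetherin, which holds budding virus at the cell surface, 2.68 ± 1.13 and 1.72 ± 0.702 CPM. Their log2 fold changes of -0.62 (SE 0.29, adjusted p = 0.175) and -0.62 (SE 0.32, adjusted p = 0.232, edgeR) were the lowest of this group. Ifitm3, which blocks virus entry at endosomes, ranged from 8.63 to 24.2 CPM untreated and from 8.63 to 13.2 CPM treated, so that its high untreated values came from libraries 1 and 4 alone (18.1 and 24.2 CPM). Lgals3bp, a secreted glycoprotein that binds galectins, did the same, at 30.9 and 40.5 CPM in these libraries and 15.7 to 19.4 CPM in the other untreated ones, against 15.6 to 29.7 CPM treated. Rtp4, a chaperone of receptors that also acts on viral RNA, averaged 5.00 ± 3.02 and 5.28 ± 1.58 CPM, and Ifi27, a small mitochondrial membrane protein, 4.90 ± 1.15 and 5.36 ± 1.41 CPM (SD, n = 5 each). Xaf1, which promotes apoptosis, averaged 3.40 ± 1.39 and 2.92 ± 1.09 CPM. Rsad2, or viperin, which makes a chain-terminating nucleotide, ranged from 0.846 to 2.68 CPM untreated and from 1.43 to 1.97 CPM treated. Its neighbour Cmpk2, a mitochondrial nucleotide kinase that supplies viperin's substrate, was at 24.8 to 31.1 CPM untreated and 26.4 to 30.3 CPM treated. Per kilobase of exon Cmpk2 averaged 6.74 CPM and Rsad2 0.363 CPM over the 10 libraries. The remaining genes were low, with means of 0.939 to 1.75 CPM in either group for Mx2, Ifi44 and Ifi35, and Mx1, a dynamin-like antiviral GTPase, was below the filter at no more than 0.739 CPM.

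**Figure D2:**
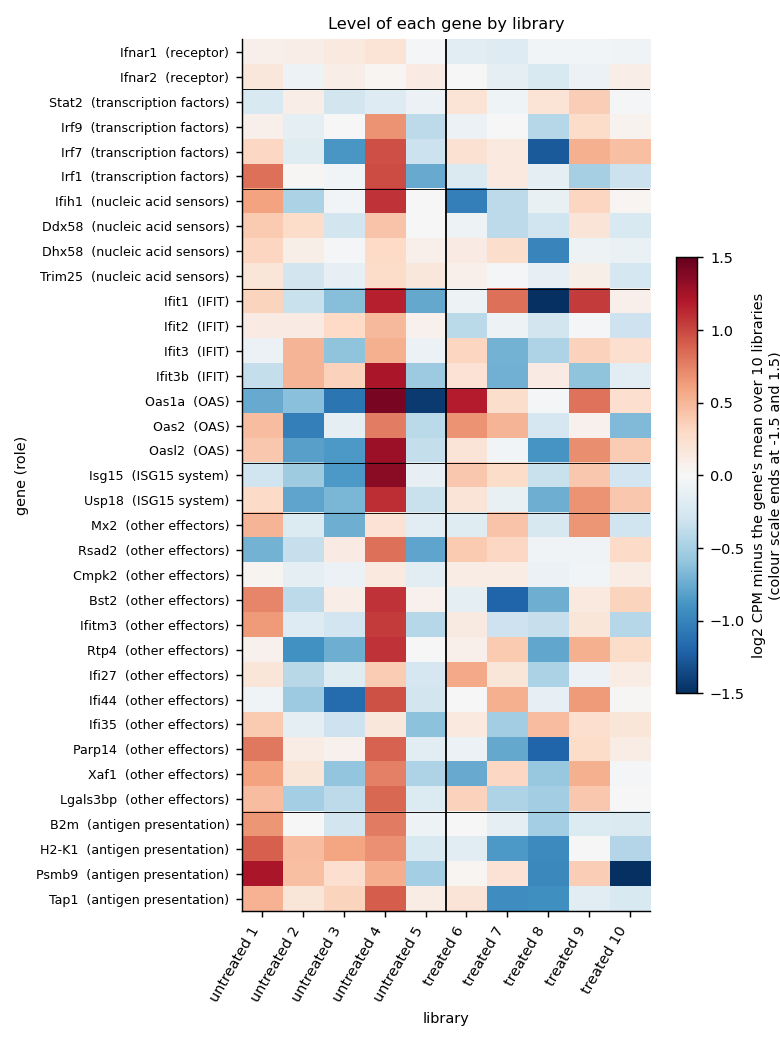
Level of the 35 members tested (rows, by role) in each of the 10 libraries (columns), as log2 CPM minus the mean of the gene over the 10 libraries. Untreated library 4 is red in most rows and treated library 8 blue in many, while H2-K1 is bluer on the treated side than in untreated libraries 1 to 4.

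Antigen presentation held the 2 called members with the lowest fold changes, H2-K1 and Tap1, while B2m and Psmb9 did not pass. Class I molecules pair a heavy chain such as H2-K1 with B2m. They are loaded with peptides that the immunoproteasome, with its subunit Psmb9, has cut and that the transporter subunit Tap1 has moved into the endoplasmic reticulum. H2-K1 (ENSMUSG00000061232, chromosome 17, 33996017 to 34000347) stood at 24.9, 18.4, 20.0, 21.4 and 11.3 CPM in untreated libraries 1 to 5 and at 11.9, 7.32, 6.85, 13.2 and 9.78 CPM in treated libraries 6 to 10. Untreated library 5 lay within the treated range, and the other untreated libraries were above it. The means were 19.2 ± 5.00 and 9.82 ± 2.78 CPM (SD, n = 5 each), with a log2 fold change of -0.96 (SE 0.21, adjusted p = 0.0114, edgeR). The call held in 23 of 25 alternative analyses and was lost in both that deal with the name prefix, where the log2 fold change was -0.73 (adjusted p = 0.230 within the shared prefix and 0.179 with the covariate). H2-K1 is highly variable between mice, and Swiss Webster is an outbred stock. How well reads of each pup's own allele were counted on the reference was not tested.

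Tap1 (ENSMUSG00000037321, chromosome 17, 34187553 to 34197225) stood at 4.37, 3.45, 3.84, 5.78 and 3.29 CPM untreated and at 3.49, 1.58, 1.59, 2.72 and 2.59 CPM treated. Only treated library 6 reached into the untreated range. Its log2 fold change of -0.77 (SE 0.23) was just past the threshold (adjusted p = 0.0487, edgeR), and the call was lost in 13 of 24 alternative analyses, with adjusted p from 0.0133 to 0.216. Among these 13 was the fit without untreated library 4 (log2 fold change -0.63, adjusted p = 0.126, edgeR). B2m (ENSMUSG00000060802, chromosome 2, 122147686 to 122153083), the most abundant member per kilobase of exon, stood at 124, 77.5, 64.7, 134 and 74.0 CPM untreated and at 77.5, 70.6, 55.0, 67.6 and 67.2 CPM treated. Its untreated libraries 1 and 4 were far above the rest and the other 3 lay among the treated ones, and it did not pass (log2 fold change -0.49, SE 0.18, adjusted p = 0.0951, edgeR). Psmb9, whose exons overlap those of Tap1 on the opposite strand by 212 bases (whether the counting used strand is not given in the sources used here), ranged from 0.356 to 1.29 CPM untreated and from 0.144 to 0.692 CPM treated (log2 fold change -0.75, SE 0.42). All 4 fold changes of the group were below 0.

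**Figure D3:**
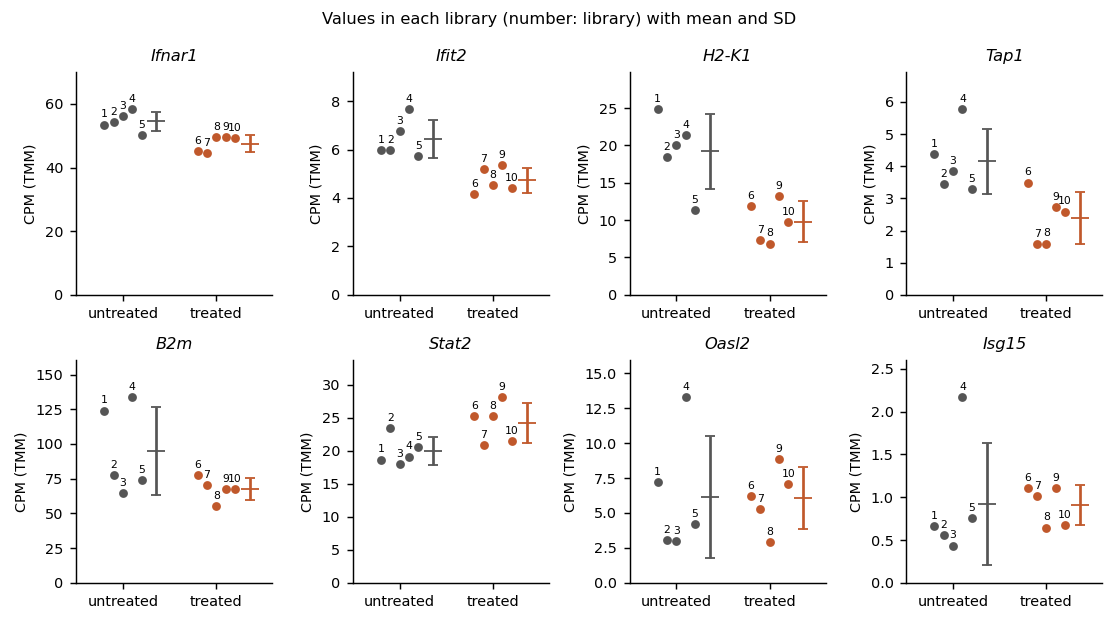
CPM of 8 members in each library (points, numbered by library; untreated grey, treated orange) with mean and SD beside them; all axes start at 0. Ifnar1 and Ifit2 do not overlap between the groups, H2-K1 and Tap1 overlap at 1 edge, and Oasl2 and Isg15 have untreated library 4 far above all others.

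The inducible genes varied together between pups of the same group. Counting all members but the 2 receptor chains and the 4 antigen presentation genes, 29 inducible genes were tested. Untreated library 4 was the highest untreated library for 25 of them (86.2%, against 21.6% of all genes), and treated library 9 was the highest treated library for 19 (65.5%, against 18.0%). At the other end, treated library 8 was the lowest of its group for 14 genes (48.3%, against 19.2%). Untreated libraries 5, 3 and 2 were the lowest for 11, 10 and 8 genes, and untreated library 4 for none. The median inducible gene stood 0.779 above its group mean on the log2 CPM scale in untreated library 4, 0.237 above in untreated library 1 and 0.332 above in treated library 9. It stood 0.387 below in treated library 8. Over all genes these medians lay between -0.0017 and 0.00718 in every library. With 5 libraries a group is too small for a correlation of its own, so correlations were taken over the 10 libraries after the mean of each group was removed. As a description over gene pairs, the median Pearson correlation was 0.489 among the 595 pairs of the 35 members and -0.0010 among all pairs of the 17101 genes, and the median Spearman correlation was 0.491 and -0.0060. All pairs share the same 10 libraries. Without untreated library 4 the median Pearson correlation among members was 0.357, the lowest of the values with 1 library left out.

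**Figure D4:**
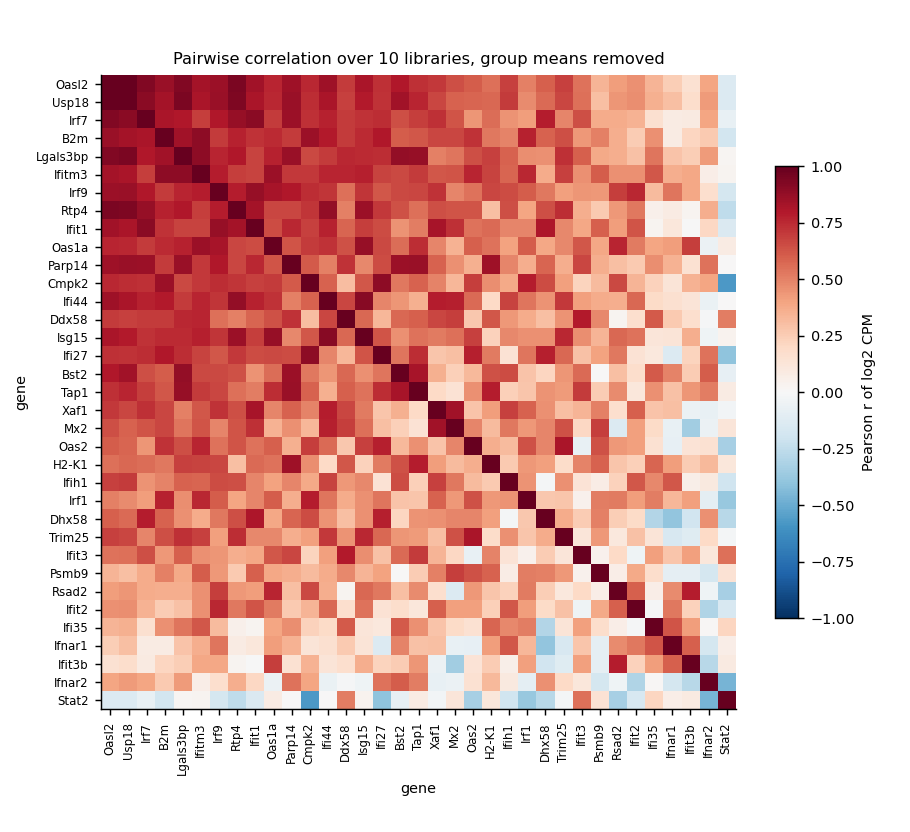
Pearson correlation of log2 CPM between each pair of the 35 members over 10 libraries with group means removed, ordered by the median correlation of each gene with the others. The upper left block, from Oasl2 to about Tap1, is red throughout, and Stat2, in the last row, is pale or blue against most genes.

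The genes most tied to the rest were Oasl2, Usp18, Irf7, B2m and Lgals3bp, with a median Pearson correlation with the other members of 0.702, 0.691, 0.689, 0.685 and 0.678. Stat2 stood at -0.051, Ifnar2 at 0.135, Ifit3b at 0.194 and Ifnar1 at 0.267. These were the 4 lowest medians, while Irf9, the partner of Stat2, stood at 0.670. Between antigen presentation and inducible genes the median correlation was 0.500, and untreated libraries 1 and 4 were each the highest of their group for 2 of the 4 antigen presentation genes. A list of 64 other interferon-stimulated genes that are no members was read in the same way. Of the 49 tested, untreated library 4 was the highest of its group for 25 (51.0%) and treated library 9 for 22 (44.9%), and their median Pearson correlation was 0.353 (Spearman 0.364). The spread between untreated libraries was wider than that between treated ones for 24 of the 35 members (68.6%, against 47.3% of all genes), with median SDs of 0.590 and 0.422 on the log2 scale. Without untreated library 4 this held for 13 of 35. Leaving out the library picked for its high values tends to narrow the untreated spread by construction. No treated library was left out in return, and the share of all genes was not taken for this setting.

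Markers of cells that could carry these genes were read in the same libraries. Activated myeloid markers, among them Ccl3, Cd52 and Clec7a, summed to 142 CPM in untreated library 1, to 55.3, 45.1 and 63.0 CPM in untreated libraries 2 to 4, and to 23.5 CPM in untreated library 5. In treated libraries they summed to 22.1 to 36.3 CPM, and 6 of the 8 tested were lower. H2-K1 and Psmb9 were likewise highest in untreated library 1 and lowest of their group in untreated library 5. Tap1, B2m and Isg15 were highest in untreated library 4, although B2m was nearly as high in untreated library 1 (124 against 134 CPM). Tap1 was also lowest of its group in untreated library 5, whereas B2m and Isg15 were lowest in untreated library 3. Among treated libraries H2-K1 was highest in library 9 (13.2 CPM) and lowest in library 8 (6.85 CPM). The sums of activated myeloid markers in these libraries were both 22.1 CPM. Treated library 6, with the highest sum of its group (36.3 CPM), had H2-K1 at 11.9 CPM and was the highest treated library for Tap1 and B2m. Microglia markers summed to 292 to 360 CPM untreated and 288 to 309 CPM treated, and 1 of the 10 rose, Tmem119. Endothelial markers summed to 179 to 197 CPM untreated and 187 to 224 CPM treated, and 2 of the 8, Flt1 and Ly6c1, rose. Oligodendrocyte markers summed to 1952 to 3756 CPM untreated and 5777 to 7794 CPM treated, and all 8 rose, with a median log2 fold change of 1.23. Astrocyte markers summed to 1170 to 1922 CPM untreated and 1450 to 1660 CPM treated, and 4 of the 8 rose. Gfap and Aqp4 had fold changes below 0 without passing (log2 fold change -0.86 and -0.33, adjusted p = 0.0771 and 0.153, edgeR). Of all genes tested, 6.61% were called higher and 4.65% lower. Of 10 T, B and NK cell markers only Cd4, which myeloid cells can also carry, passed the filter, at 8.58 to 15.5 CPM untreated and 3.25 to 19.5 CPM treated. The other 9 were at or near 0 in every library, Cd3d at 0 in all 10. Neutrophil markers, none past the filter, summed to 6.42 CPM in untreated library 4, 6.35 CPM in treated library 6 and 0.351 to 1.86 CPM elsewhere. The part of these cells in the results was not tested. In whole tissue, fewer cells of a type and less RNA per cell cannot be told apart. Summed Y-linked genes were at 0.0862 CPM in untreated library 2, at 0.863 CPM in treated library 10 and at 80.3 to 105 CPM in the others.

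**Figure D5:**
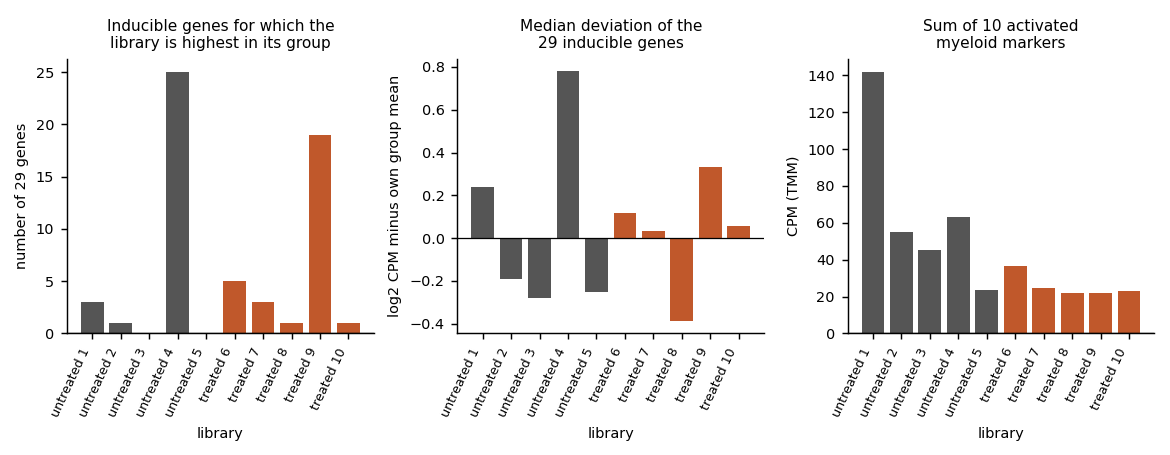
For each library (untreated grey, treated orange), the number of the 29 inducible genes for which it was the highest of its group, the median deviation of these genes from their group mean (log2 CPM) and the summed CPM of 10 activated myeloid markers. Untreated library 4 leads the first 2 panels with 25 genes and 0.779, while untreated library 1 leads the third with 142 CPM.

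Other genes of the pathway were read from lists and gave few calls. Among 14 further receptors, kinases and regulators 2 fell and none rose (14.3%, against 11.3% of all genes). Jak2, the kinase that serves the type II interferon receptor, went from 30.5 ± 3.15 to 24.1 ± 1.85 CPM (SD, n = 5 each, log2 fold change -0.34, SE 0.08, adjusted p = 0.0169, edgeR). Of the 14 genes it alone had every treated library below every untreated one, against 4.2% of all genes. Ptpn6, a phosphatase of blood and myeloid cells, fell 1.81-fold, a call lost in 11 of 24 alternative analyses. Of 16 genes of sensing and interferon induction, 1 rose and 1 fell (12.5%). The adaptor Traf3 rose 1.26-fold, its mean being 149 ± 14.0 CPM without and 189 ± 22.4 CPM with treatment (SD, n = 5 each). Tlr9, an endosomal DNA receptor, fell 2.12-fold. The call on Traf3 was lost in 4 of 25 alternative analyses and that on Tlr9 in 12 of 24. Irf3, which starts interferon transcription and was singled out after its values were seen, missed the threshold at a log2 fold change of 0.02.

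Of the 49 further interferon-stimulated genes tested, 2 fell and none rose (4.08%). Of all genes, 11.3% were called in either direction and 4.65% were called lower. The 2 genes were Ifi30, a lysosomal thiol reductase of antigen processing (1.96-fold lower), and Tdrd7, a protein of RNA granules (1.23-fold lower). In both the groups did not overlap. Thus 2 of the 49 had every treated library below every untreated one, against 4.2% of all genes. Without adjustment 9 of the 49 had a p under 0.05 in edgeR, and 27.5% of all genes had one. Of 21 further antigen presentation genes tested, 3 fell and none rose (14.3%). These were Cd74, the invariant chain of class II (2.04-fold), Ctss, the protease that trims it (1.69-fold), and H2-DMa, which loads class II peptides (1.21-fold). The calls on Cd74, Ctss and H2-DMa were each lost in 14 of 25 alternative analyses. H2-D1, the other classical class I heavy chain and singled out here after its values were seen, stood at 32.5, 21.7, 13.9, 23.1 and 7.97 CPM untreated and at 31.5, 19.9, 22.7, 17.0 and 21.3 CPM treated. Its groups overlapped and it did not pass (log2 fold change 0.19, SE 0.28, adjusted p = 0.717, edgeR). Whether H2-K1 and H2-D1 differed in their response was not tested. Over the 100 pathway genes tested 9 were called (9%, against 11.3% of all genes). The count ran from 2 to 15 with 1 library left out and was 0 in both fits that deal with the name prefix.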

How the data were processed

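RNA of 10 whole brains was sequenced from libraries made with a directional kit, per the labels' protocols. Partek and mm10 are named in the submitters' processing notes; aligner, counter, annotation and strand setting: not given in the sources used here. The authors deposited 1 table of estimated counts (expected counts) per Ensembl gene. Its name calls the values normalized, but library totals ran from 18656836 to 34270723 and 86.8% to 87.6% of values were whole, so they were treated as unscaled and rounded. Of 55471 identifiers, 55230 were found in GENCODE M21 (GRCm38), which gave symbols and positions, and 241 were not.

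Genes with 10 or more counts in at least 5 libraries were kept (17101). Treated and untreated libraries were compared with edgeR 4.0.16 (R 4.3.3; TMM scaling, quasi-likelihood test, two-sided, Benjamini-Hochberg adjustment over all genes tested, threshold 0.05). Alternatives used other scalings and filters, DESeq2 1.42.0, limma 3.58.1, thinning, covariates and left-out libraries. On simulated counts of 17101 genes for this comparison, 64% of 1.5-fold and 83% of 2-fold changes were recovered, and unchanged genes made up 5.77% of the calls. The changed genes were drawn from all genes, whose median log2 SDs were 0.146 untreated and 0.156 treated. Those of the members were wider, at 0.590 and 0.422, and recovery among members was not measured. Correlations used log2 CPM with group means removed. Promoter windows came from RefSeq (GRCm38.p6), with entries for 30 of 39 members.

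The members and lists were chosen with earlier results of these data known. By the rule for naming, all 39 members were accounted for, with each library's value for called members, receptors and transcription factors; from each pathway list at most 6 called genes were named, and from each marker list at most 3. Other genes named were chosen after their values were seen. Each library carries its own mouse number, and p values measure the spread between these pups. The depth limits low genes most, and limits from a count of 0 cover counting error only.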

Additional observations from a re-analysis of the deposited data

Results flagged for a closer look

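In 5 of 90 groups of 5 libraries examined (5.56%), 1 library lay far from the other 4 by Dixon's criterion, and chance gives about 1 in 20. Isg15 stood at 2.17 CPM in untreated library 4, against 0.436 to 0.757 CPM in the other untreated libraries. Oas1a stood at 1.57 CPM in the same library, against 0.178 to 0.345 CPM. Ifi30 stood at 24.8 CPM in untreated library 1, the library with the highest sum of activated myeloid markers, against 9.26 to 12.6 CPM. Cd74 stood at 6.23 CPM in treated library 6, against 3.13 to 3.69 CPM in the other treated libraries. Tdrd7 stood at 18.6 CPM in treated library 8, against 16.2 to 16.9 CPM.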

How the results depend on the processing

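No paired analysis was possible because the groups share no replicate numbers. The 4 called members kept their direction in every alternative run, and no result reversed past the threshold; among the 31 members not called, 28 stayed short of it in every alternative and 15 changed sign in at least 1. The number of members called was 0 within the shared name prefix and 0 with the prefix as a covariate, 2 after thinning to the shallowest library, and 1 to 4 with 1 library left out: 1 without treated library 10, and 2 without untreated library 1, 3 or 4 or treated library 6, 7 or 8. All genes called numbered 105 within the prefix, 180 with the covariate and 1084 to 2343 with 1 library left out, the lowest without untreated library 4. Pathway genes called numbered 14 with library totals, 17 with DESeq2, 16 without untreated library 5 and treated library 6, 5 with a Y-linked covariate, 0 in both prefix fits and 2 to 15 with 1 library left out. The cause of these shifts was not tested, although fits without libraries hold fewer samples. The median correlation among members ran from 0.357 to 0.544 with 1 library left out. Leaving out untreated libraries 1 and 5 together, chosen after seeing the data, gave 3 called members. Scaling by library totals moved the median of all genes to -0.06.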
